A study of Homo sapiens with 8 samples.

Results

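Collagens, laminins and integrins, together with fibronectin (FN1), are the proteins that build the extracellular matrix and tie cells to it. Their ribosome footprints were examined in 8 ribosome profiling (Ribo-seq) libraries of OVCAR3, a human ovarian carcinoma cell line in long use. The members were chosen by gene symbol alone: protein-coding genes named COL plus a number and chain letter, LAMA, LAMB or LAMC plus a number, and ITGA or ITGB plus a number or letter (the integrin-binding proteins ITGB1BP and ITGB3BP left out), and FN1. Of 84 such genes in the annotation, 82 had a region in the files, and these made 85 of the 20165 regions: 45 collagen, 12 laminin and 27 integrin regions and 1 of FN1. COL10A1 and COL8A2 had only regions with a coding length of 0 (5 regions). The other 80 genes, which comprised 40 collagens, all 12 laminins, 27 integrin-named genes and FN1, have 1 region each and are described here. COL6A5 and COL9A3 were not analysed here. The region of ITGB3 also joins transcripts of EFCAB13 and of an unnamed gene, so its counts are uncertain. ITGBL1 met the rule by its name although it encodes no integrin chain.

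In 1 experiment, OVCAR3 cells were transfected for 48 h with siRNA at 30 nM, either a control (siControl) or one targeting OARD1, the gene of the ADP-ribose hydrolase TARG1 (siTARG1). In the other, OVCAR3 cells stably carried a doxycycline-inducible shRNA against RACK1, a protein of the small ribosomal subunit, together with an inducible HA-tagged RACK1. That RACK1 was either wild type (RACK1-WT) or mutated at its sites of mono-ADP-ribosylation (RACK1-Mut), and 1 µg/ml doxycycline was given for 48 h to both lines. Each of the 4 groups had 2 libraries, described in the study's methods as independent biological samples. The lines of the RACK1 experiment had been infected with lentivirus and selected with antibiotics, and the siRNA-treated cells had not, so no level was tested between the experiments.

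Collagens are built from 3 α chains wound around each other. Fibrillar collagens make cable-like fibres, type IV collagen makes the sheet of the basement membrane, and other types decorate or link these. Laminins are cross-shaped molecules of 1 α, 1 β and 1 γ chain, the other main component of the basement membrane under epithelia. Fibronectin forms fibrils between cells. Integrins are receptors of 1 α and 1 β chain that bind all of these outside the cell and connect to actin or keratin filaments inside it. Ovarian carcinoma cells meet such matrix on the peritoneum, which they adhere to as they spread.

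Coding footprints summed to 3100947 to 4207939 counts in the 4 libraries of the siRNA experiment and to 3798750 to 6604190 in the 4 of the RACK1 experiment. Normalized counts of OARD1 were 121.3 and 69.14 with the control siRNA and 5.827 and 6.747 with siTARG1. RACK1 had 23330 and 23590 in the RACK1-WT libraries and 17740 and 17270 in the RACK1-Mut libraries. It was thus called lower in RACK1-Mut cells (log2 fold change -0.42, adjusted p 1.34e-08 in DESeq2). The mutation and the lower RACK1 footprints go together in that comparison and cannot be told apart. All 13 matched markers of epithelial and ovarian carcinoma cells (of 14 listed) had a footprint level of at least 1 in every group. Of the 12 matched stromal markers, MFAP5, LUM, ACTA2, TAGLN or S100A4 made up the 4 at or above that level in a group, and the fibroblast markers PDPN and DPT were at 0 in all 4 groups. The summed level of endothelial markers was at most 3.55, and that of white blood cell markers at most 7.38. In bulk samples such as these, fewer cells of a type and less RNA per cell cannot be told apart. Footprints were counted without matched RNA here, so each value is an abundance of footprints and not a translation efficiency.

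The share of all coding footprints taken by the 80 genes was 0.679% and 0.642% in siControl cells and 0.762% and 0.74% in siTARG1 cells. It was 0.735% and 0.777% in RACK1-WT cells and 0.722% and 0.736% in RACK1-Mut cells. Laminins took the largest share of the families, with 0.329% and 0.304% in siControl cells and 0.398% and 0.389% in siTARG1 cells. Integrins took 0.105% in each siControl library, and 0.129% and 0.13% in the siTARG1 libraries. Collagens took 0.22% and 0.209% in siControl cells and 0.216% and 0.201% in siTARG1 cells. The siTARG1 libraries thus lay above both siControl libraries for all members together, for laminins and for integrins, while the collagen shares overlapped. In the RACK1 experiment the order was the other way: laminins took 0.375% and 0.399% in RACK1-WT cells and 0.372% and 0.374% in RACK1-Mut cells, and integrins 0.197% and 0.196% against 0.186% and 0.192%. The RACK1-Mut libraries thus lay below both RACK1-WT libraries for laminins and integrins, while those of collagens and of all members together overlapped. With 2 libraries against 2, the exact two-sided permutation test cannot give a p below 0.33, the value it gave for each of these 5 separations.

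Levels between genes were compared as coding footprints per kb of coding length, scaled to the total of coding counts in the library as an RPKM is, here called the level. A gene was taken as expressed where its mean level over the 4 libraries of an experiment was at least 1. By that rule 41 of the 80 genes were expressed in each experiment, and 39 in both: 15 collagens, 9 laminins, 14 integrins and FN1. COL1A2 and LAMA2 passed only in the siRNA experiment, at mean levels of 1.5 and 1.31, and ITGA5 and LAMC3 only in the RACK1 experiment, where LAMC3 had 1.35. Just below the threshold lay COL16A1 (0.889) and COL4A6 (0.828) in the siRNA experiment and ITGAE (0.772) and COL16A1 (0.667) in the RACK1 experiment. Another 37 genes were under it in both. No count fell in any library on 9 genes: the collagens COL5A1, COL5A3, COL6A6, COL19A1, COL20A1 and COL22A1 and the integrin chains ITGA8, ITGAD and ITGAM, the last 2 of which are known from white blood cells.

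**Figure D1:**
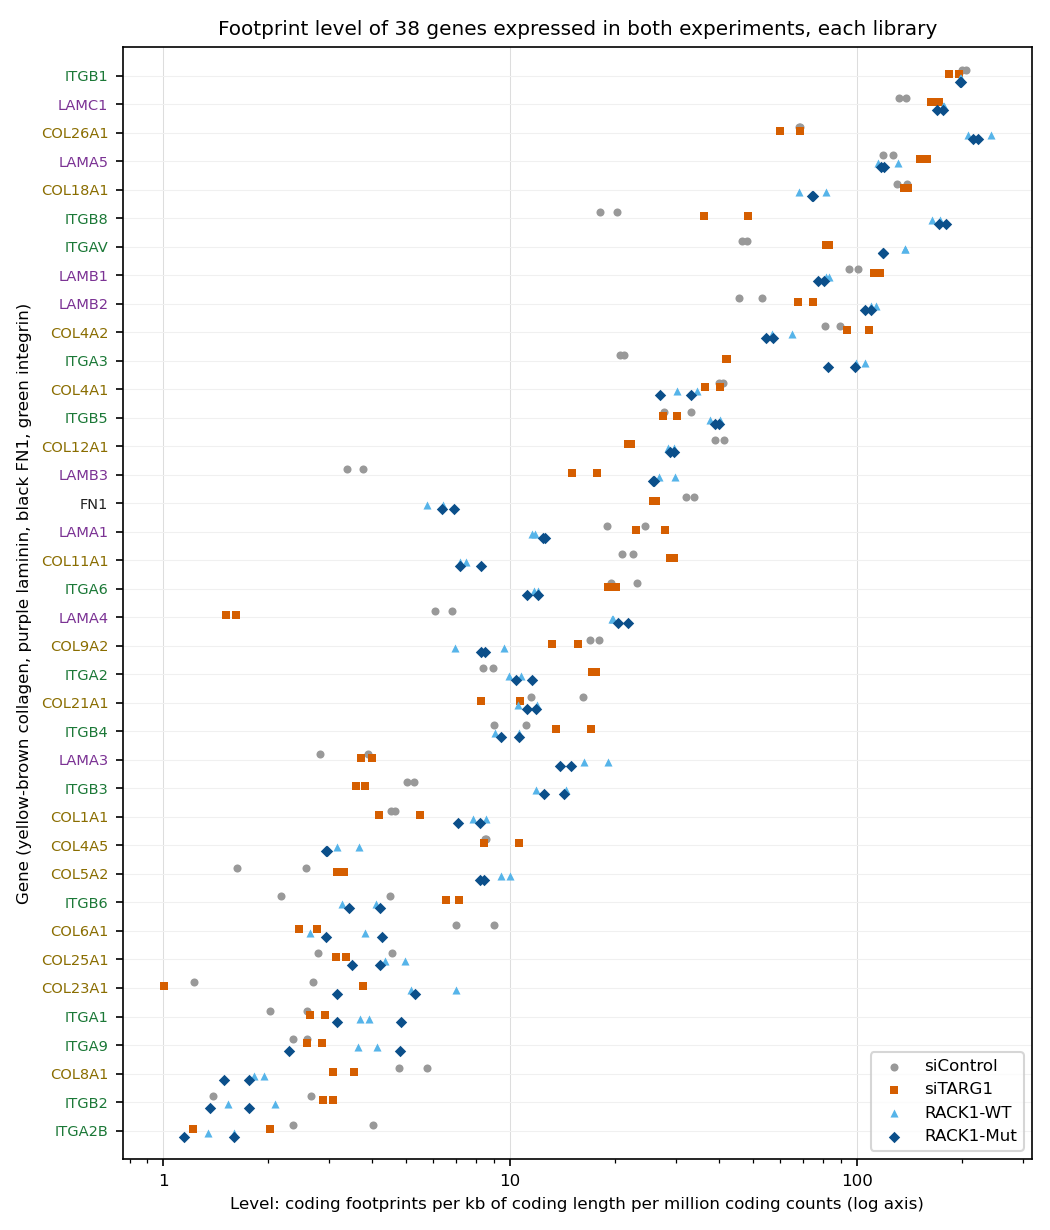
Level (coding footprints per kb of coding length, scaled to the coding counts of the library, log axis) of 38 genes expressed in both experiments, with 1 point per library and genes ordered by their mean level over the 8 libraries. ITGB1 lay between 184.1 and 206.5 in all libraries, whereas ITGB8, LAMB3, ITGA3 and COL26A1 lay lower in both siRNA groups than in both RACK1 groups, and FN1 and COL11A1 lay higher.

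ITGB1, the β chain that pairs with most α chains, had the highest mean level over the 8 libraries. Its level was 203 ± 4.62 in siControl cells, 191 ± 9.1 in siTARG1 cells, 199 ± 1.39 in RACK1-WT cells and 198 ± 1.06 in RACK1-Mut cells (SD, n = 2 in each group). ITGB1 thus varied little between groups, and next in order came LAMC1, the γ chain of most basement membrane laminins. LAMC1 had 135 ± 4.82 in siControl cells, 168 ± 6 in siTARG1 cells, 177 ± 0.494 in RACK1-WT cells and 174 ± 4.94 in RACK1-Mut cells (SD, n = 2). COL26A1, LAMA5, COL18A1, ITGB8, ITGAV, LAMB1, LAMB2 and COL4A2 completed the first 10. The lowest library of ITGB1 (184.1) lay above the highest of LAMC1 (177.7), whereas the libraries of every later pair of neighbours in this order overlapped when the groups were pooled. Of the fibrillar collagens, COL1A1 had a low level of 4.6 ± 0.0714 in siControl cells and 8.17 ± 0.49 in RACK1-WT cells (SD, n = 2). COL11A1 had 21.8 ± 1.17 and 7.32 ± 0.21 in the same groups (SD, n = 2). COL18A1, which has a heparan sulphate proteoglycan core and yields endostatin, was the collagen with the highest level in siControl cells, at 135 ± 6.55 (SD, n = 2).

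Several levels in control cells of the experiments were far apart. ITGB8, the β chain that pairs with αv and takes part in the activation of latent TGF-β, had 18.11 and 20.38 in siControl cells and 172.9 and 164.1 in RACK1-WT cells. LAMB3 had 3.377 and 3.757 against 26.94 and 29.87, and ITGA3, the α chain of a laminin receptor, had 21.23 and 20.74 against 98.98 and 105.5. In the other direction, FN1 had 33.85 and 32.06 in siControl cells and 6.396 and 5.752 in RACK1-WT cells. COL11A1, a minor fibrillar chain often found in tumour stroma, had 22.6 and 20.94 against 7.172 and 7.468. These 5 genes were named for the distance between their levels, so the lack of overlap between their libraries follows from that choice. The share of all members or of all regions without such overlap was not computed. The siRNA transfection, the lentiviral lines and doxycycline all differ between the experiments and cannot be told apart.

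Depletion of TARG1 was accompanied by footprint changes in 15 of the 52 members tested (adjusted p under 0.05, DESeq2), of which 10 rose and 5 fell, and all 15 were expressed. The 15 make 28.8% of the members tested, and 16.4% of all 12056 genes tested were called. The members that rose make 19.2%, where 7.18% of all genes rose, and those that fell make 9.62%, where 9.19% of all genes fell. The median of the mean normalized counts was 100.1 for the members tested and 103 for all genes tested. Of the 80 genes, 16 had no count in these 4 libraries and others had too few to be tested, and 8 of the 52 tested were left without an adjusted p by DESeq2. By family, 6 of 11 laminins were called (4 rose, 2 fell), 5 of 16 integrins (all rose), 3 of 24 collagens (1 rose, 2 fell) and FN1, which fell. The median log2 fold change was 0.16 for laminins, 0.13 for integrins, 0.05 for collagens and 0 for all genes. These medians moved with single libraries: without siControl replicate 1 that of laminins was 0.32 and that of integrins 0.38, and without siTARG1 replicate 1 that of collagens was -0.2. The median of the integrins was also 0.33 where 10 counts were required in every library. Among the 52 members, 37 (71.2%) had siTARG1 values all on one side of the siControl values, as did 62.6% of all genes tested. Of the epithelial markers, 7 of the 13 were called in these cells. Keratins KRT8 and KRT18 fell by 1.03 and 1.24 on the log2 scale and CDH1, the E-cadherin gene, rose by 1.64, while the summed level of the list went from 9520 to 9780 in siControl cells to 7130 to 7710 in siTARG1 cells. The summed level of the stromal markers was 54.9 to 88.0 in siControl cells and 115 to 133 in siTARG1 cells. S100A4 was higher (log2 fold change 1.28) and ACTA2 lower (-1.25), and DCN, FAP, PDPN and DPT were at 0 in both groups. On few counts, PDGFRB had 0.8789 and 0 normalized counts in siControl cells and 2.497 and 6.747 in siTARG1 cells. LUM had 1.758 and 1.192 against 7.491 and 2.249, while THY1 and POSTN were at 0 in siTARG1 cells and not in siControl cells. The part of these marker differences in the changes of the members was not tested.

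**Figure D2:**
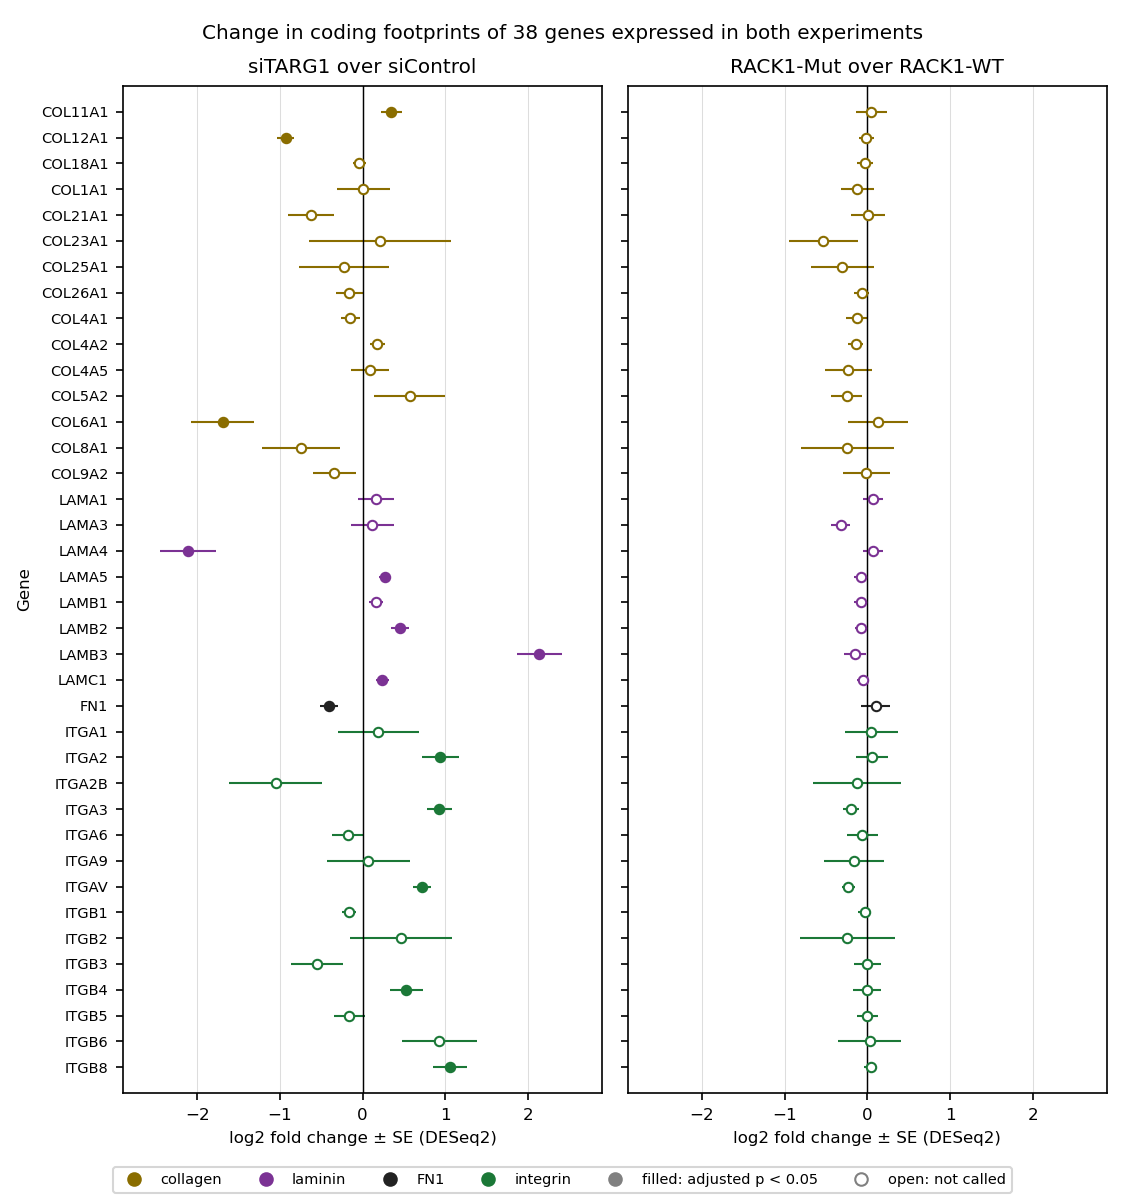
Log2 fold change with its standard error (DESeq2) of 38 genes expressed in both experiments, siTARG1 over siControl on the left and RACK1-Mut over RACK1-WT on the right, with filled points for adjusted p under 0.05. On the left 14 points are filled, from LAMA4 at -2.11 to LAMB3 at 2.14, and on the right none is.

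Earlier results of these data gave a pair of short motifs as more frequent in the 3′ UTRs of genes called in siTARG1 cells, and the members were searched for them on the sense strand of the UTR of 1 transcript a gene. The motifs are the 7-base parts of TGAACATA (TGAACAT and GAACATA) and of TGAATATA (TGAATAT and GAATATA), and a run of the full 8 bases, which holds both parts of its motif, was counted as 1 site. Of 11518 genes tested that have an annotated 3′ UTR, 19.4% held a TGAACATA part, with 38.9% of the genes that fell, 15.0% of those that rose and 17.7% of those not called. A TGAATATA part was held by 26.4% of all, by 26.1% of those that fell, by 48.9% of those that rose and by 24.5% of those not called. Among the 52 members, 8 (15.4%) held the first and 15 (28.8%) the second, and 6 sites are printed here to show what the matches look like in COL12A1, which fell, and in ITGAV and ITGB8, which rose. The printed sites are a part of those in these genes. COL12A1 also held GAATATA, ITGAV also held TGAACAT, and ITGB8 held further sites of both motifs. The motif is in capitals within 8 flanking bases on each side, 5′ to 3′ in the sense of the mRNA, with GRCh37 coordinates of the capitals.
COL12A1, chr6:75794149-75794156, minus strand: caagactaTGAACATAgaattgct
ITGAV, chr2:187542788-187542794, plus strand: atttcaccTGAATATcataatgc
ITGAV, chr2:187543399-187543405, plus strand: ttctagagGAATATAtgatttat
ITGAV, chr2:187543647-187543653, plus strand: aatcttgaGAATATAttcgtaaa
ITGB8, chr7:20455024-20455031, plus strand: taaatattTGAATATAaaatagct
ITGB8, chr7:20455063-20455070, plus strand: attatcacTGAACATAtttcttat
Of the members that fell, COL12A1 held a part of each motif, and LAMA4, COL6A1 and FN1 held no part of either motif. Of the 10 that rose, ITGAV, ITGA2, ITGB8 and LAMC1 held a TGAATATA part, and ITGAV, ITGB8, LAMC1 and COL11A1 a TGAACATA part. LAMB3, ITGA3, LAMB2, LAMA5 and ITGB4 rose and held neither. A match is a description of the letters, and the sequence of the siRNA was not used here.

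Among the collagens, COL12A1, a long chain that binds to the surface of type I collagen fibrils, fell most clearly. It is on the minus strand of chromosome 6 (75794042 to 75915983, GRCh37), and its normalized counts were 1405 and 1328 in siControl cells and 705.8 and 726.5 in siTARG1 cells (log2 fold change -0.93, SE 0.101, adjusted p 3.27e-18). Its siTARG1 values were thus close to each other and far below both controls. COL6A1, a chain of the beaded filaments of type VI collagen that lie around cells (chromosome 21, 47401684 to 47424964), had 102.8 and 79.87 normalized counts in siControl cells and 26.64 and 30.36 in siTARG1 cells. It fell by 1.69 on the log2 scale (SE 0.381, adjusted p 0.000159), on fewer counts than COL12A1. COL11A1 (chromosome 1, 103342023 to 103574428) was the only collagen that rose, with 465.8 and 431.5 normalized counts against 581.0 and 567.9 (log2 fold change 0.35, SE 0.132, adjusted p 0.0433). This call was lost in DESeq2 with no filter on low counts (adjusted p 0.0503) and on exon counts (0.0533).

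The basement membrane collagens did not pass the test. COL4A1 had 762.0 and 741.4 normalized counts in siControl cells and 707.5 and 647.7 in siTARG1 cells, a log2 fold change of -0.15 (95% interval -0.38 to 0.08). COL4A2, which starts beside COL4A1 on the opposite strand of chromosome 13, had 1699 and 1531 against 1952 and 1700, a log2 fold change of 0.18 (95% interval -0.01 to 0.37). The chains therefore lay on opposite sides of 0, each within its interval. COL18A1 had 2718 and 2537 against 2580 and 2535, with overlapping groups and a 95% interval of -0.19 to 0.11. COL26A1, a little-studied collagen with a high level in these cells, had 335.7 and 332.6 against 318.0 and 280.0 (95% interval -0.48 to 0.16). COL21A1 had 122.2 and 172.8 against 83.24 and 109.1, with an adjusted p of 0.114 in DESeq2. It was called, as a fall, in edgeR and with all 8 libraries in 1 fit. COL1A1, the main chain of type I collagen, had 75.59 and 73.91 against 84.9 and 65.22, so that its siTARG1 libraries lay on either side of the controls (95% interval -0.62 to 0.65).

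Laminin chains moved in both directions and held the largest rise and the largest fall among the members called. LAMB3 (minus strand of chromosome 1, 209788215 to 209825770), the β chain of the laminin that anchors epithelial cells through hemidesmosomes, had 43.95 and 48.87 normalized counts in siControl cells and 185.6 and 221.5 in siTARG1 cells. Every siTARG1 value was above every siControl value, and the gene rose by 2.14 on the log2 scale (SE 0.277, adjusted p 1.1e-12). LAMA4 (minus strand of chromosome 6, 112429134 to 112576141), an α chain known from the basement membranes of vessels, muscle and fat, had 138.0 and 122.8 in siControl cells and 29.13 and 31.49 in siTARG1 cells. It fell by 2.11 on the log2 scale (SE 0.336, adjusted p 1.44e-08). In level, LAMA4 stood at 6.44 ± 0.529 in siControl cells and 1.57 ± 0.0756 in siTARG1 cells (SD, n = 2), the lowest of the expressed laminins in the latter apart from LAMA2.

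LAMA3, an α chain that assembles with LAMB3, had 144.1 and 104.9 normalized counts in siControl cells and 139.8 and 131.6 in siTARG1 cells, and its groups overlapped (95% interval -0.39 to 0.62). A rise of LAMA3 like that of LAMB3 lies outside this interval.

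The chains of the broadly expressed laminins rose by smaller amounts. LAMB2 (chromosome 3, 49158547 to 49170551) had 1060 and 910.7 normalized counts in siControl cells and 1410 and 1288 in siTARG1 cells (log2 fold change 0.45, SE 0.106, adjusted p 0.000343). LAMA5 (chromosome 20, 60883011 to 60942368), the main α chain of epithelial basement membranes, had 5222 and 4854 against 6184 and 5962 (log2 fold change 0.27, SE 0.0671, adjusted p 0.000838). LAMC1 (chromosome 1, 182992555 to 183114727) had 2475 and 2352 against 2772 and 2944 (log2 fold change 0.24, SE 0.0768, adjusted p 0.0133). These 3 are chains of the same kind of molecule, and their groups did not overlap, as held for 62.6% of all genes tested. LAMB1, which takes the place of LAMB2 in other laminins, had 1988 and 1874 against 2103 and 2209 and did not pass the test (log2 fold change 0.16, adjusted p 0.19 in DESeq2). LAMA1 had 833.2 and 650.8 against 901.4 and 753.4, with overlapping groups.

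FN1 lies on the minus strand of chromosome 2 (216225163 to 216300796). It had 930.8 and 880.9 normalized counts in siControl cells and 674.2 and 692.7 in siTARG1 cells. It fell by 0.41 on the log2 scale (SE 0.11, adjusted p 0.00253), and both siTARG1 libraries lay below both controls.

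All 5 integrin chains called in siTARG1 cells with DESeq2 rose. The edgeR fit also called ITGB6, which rose, and ITGA2B and ITGB3, which fell (log2 fold change -1.05 and -0.55 in DESeq2). ITGB8 (chromosome 7, 20370325 to 20455377) had 154.7 and 174.0 normalized counts in siControl cells and 292.2 and 395.8 in siTARG1 cells (log2 fold change 1.06, SE 0.202, adjusted p 3.96e-06). Its siTARG1 libraries were further apart than those of the 3 α chains described next. ITGAV (chromosome 2, 187454737 to 187545628), the αv chain that pairs with ITGB8 and with several other β chains, had 551.1 and 568.6 against 927.2 and 918.8 (log2 fold change 0.72, SE 0.113, adjusted p 8.28e-09). ITGA3 (chromosome 17, 48133332 to 48167845), which pairs with ITGB1 to bind laminins, had 247.9 and 242.0 against 466.1 and 468.9 (log2 fold change 0.93, SE 0.155, adjusted p 7.46e-08). ITGA2 (chromosome 5, 52285170 to 52390609), the α chain of a collagen receptor, had 116.9 and 109.7 against 218.9 and 215.9 (log2 fold change 0.94, SE 0.222, adjusted p 0.000368). In each of these 3 the siTARG1 libraries were nearly equal and far above both controls. ITGB4 (chromosome 17, 73717408 to 73753899), the β chain of hemidesmosomes, had 222.4 and 180.0 against 258.0 and 328.4 (log2 fold change 0.53, SE 0.2, adjusted p 0.0445), with wide spread in both groups, and its call was lost with no filter on low counts (adjusted p 0.0537 in DESeq2).

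ITGB1, the partner of ITGA2 and ITGA3, did not rise with them. It had 1780 and 1837 normalized counts in siControl cells and 1660 and 1566 in siTARG1 cells (log2 fold change -0.16, 95% interval -0.33 to 0, adjusted p 0.191 in DESeq2). ITGA6, another laminin-binding α chain, had 232.0 and 276.6 against 228.1 and 218.2 (95% interval -0.55 to 0.19). ITGB5 had 295.3 and 246.8 against 232.2 and 256.4, and its groups overlapped. ITGB6, an αv partner of epithelia, had 39.55 and 19.07 against 54.1 and 59.6, a log2 fold change of 0.93. On these counts it did not pass the test in DESeq2 (adjusted p 0.156) and was called in edgeR.

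**Figure D3:**
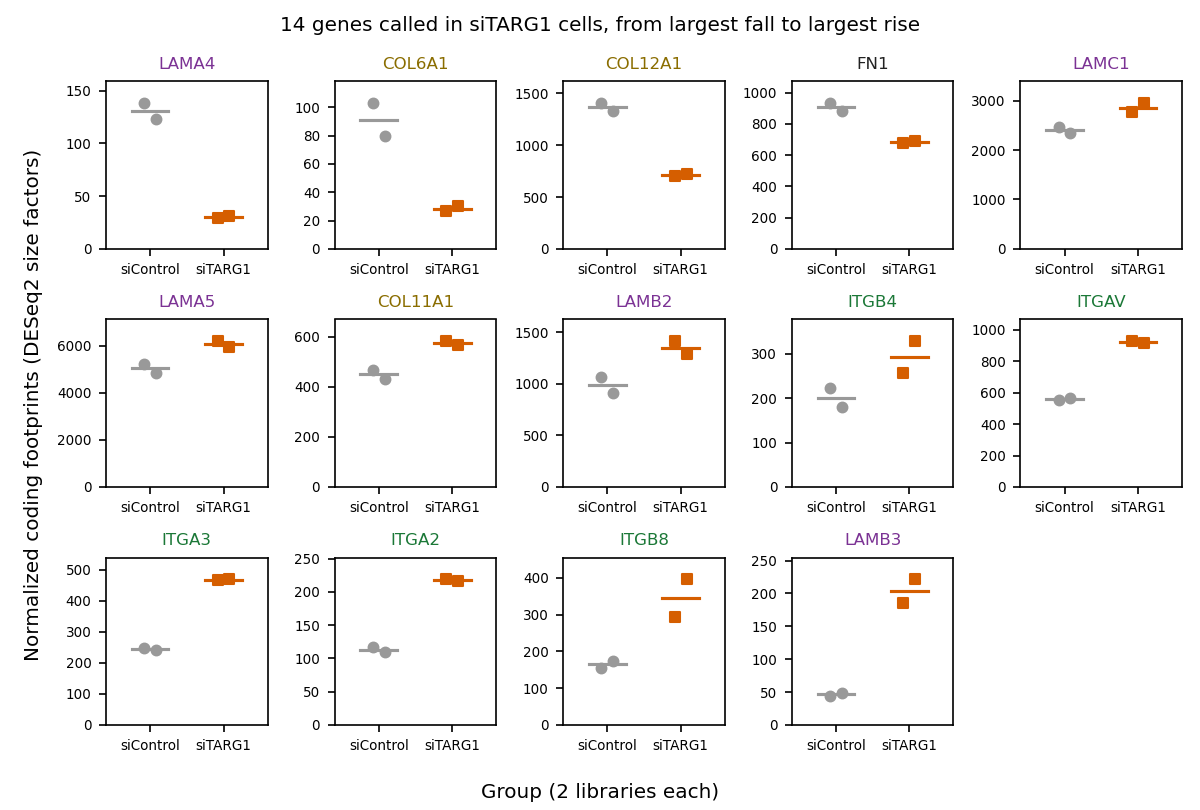
DESeq2-normalized coding footprints of 14 genes called in siTARG1 cells, each axis starting at 0, with 1 point per library, a line at the group mean and genes ordered from the largest fall (LAMA4) to the largest rise (LAMB3). In all 14 the siTARG1 points lie beyond both siControl points, which a choice by calls on these same libraries favours. Such separation held for 62.6% of all genes tested. The gap is narrowest relative to the spread for ITGB4.

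The calls differed in how far they rested on single libraries. Leaving out each of the 4 libraries in turn, COL12A1, LAMB3, LAMA4, ITGAV and ITGA3 were called in all 4 fits. ITGB8 was lost without siTARG1 replicate 2 (adjusted p 0.0691). LAMB2 and LAMA5 were lost without siControl replicate 2 and without siTARG1 replicate 1 (up to 0.188 and 0.195), and COL6A1 without siControl replicate 1 and without siTARG1 replicate 1 (up to 0.167). FN1, ITGA2, COL11A1, ITGB4 and LAMC1 were called in none of the 4 (adjusted p from 0.0589 to 0.654, DESeq2). The direction of each of these genes was the same in all 4 fits.

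Because partner chains are made for one molecule, the ratio of their levels was computed in each library, which removes the scaling of the library. The ratio of ITGAV to ITGB1 was 0.233 in both siControl libraries and stood at 0.421 and 0.442 with siTARG1. With the levels of the α chains ITGA1 to ITGA11 and ITGAV summed, their ratio to ITGB1 was 0.511 in both siControl libraries and 0.858 and 0.898 with siTARG1. In RACK1-WT cells this summed ratio was 1.35 and 1.39, and in RACK1-Mut cells 1.17 and 1.26. The summed α chains therefore had a lower footprint level than ITGB1 in the siRNA experiment and a higher one in the RACK1 experiment. The sum counts ITGAV and ITGA6 in full, although both also pair with other β chains. ITGAV alone had a ratio to ITGB1 of 0.688 and 0.696 in RACK1-WT cells, and 0.601 and 0.598 in RACK1-Mut cells. A sum without these chains was not computed.

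The ratio of COL4A1 to COL4A2 was 0.46 and 0.497 in siControl cells and 0.372 and 0.391 in siTARG1 cells, with no overlap. Both chains go into the same trimer, which holds 2 copies of the COL4A1 chain. COL1A1 to COL1A2, the chains of type I collagen in which COL1A1 also has 2 copies, gave 4.01 and 3.04 against 2.8 and 3.01. LAMB1 to LAMC1 was 0.724 and 0.718 against 0.684 and 0.676, and LAMA5 to LAMC1 was 0.919 and 0.899 against 0.972 and 0.882. ITGA6 to ITGB4 was 1.75 and 2.58 against 1.49 and 1.12, lower in both siTARG1 libraries. No pair can pass the exact permutation test with 2 libraries against 2, whose smallest p is 0.33, and 11 pairs were compared in the siRNA experiment and 9 in the RACK1 experiment. The coding length of LAMA3 covers a long and a short form of the chain, so its level is understated where the short form is the one translated.

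**Figure D4:**
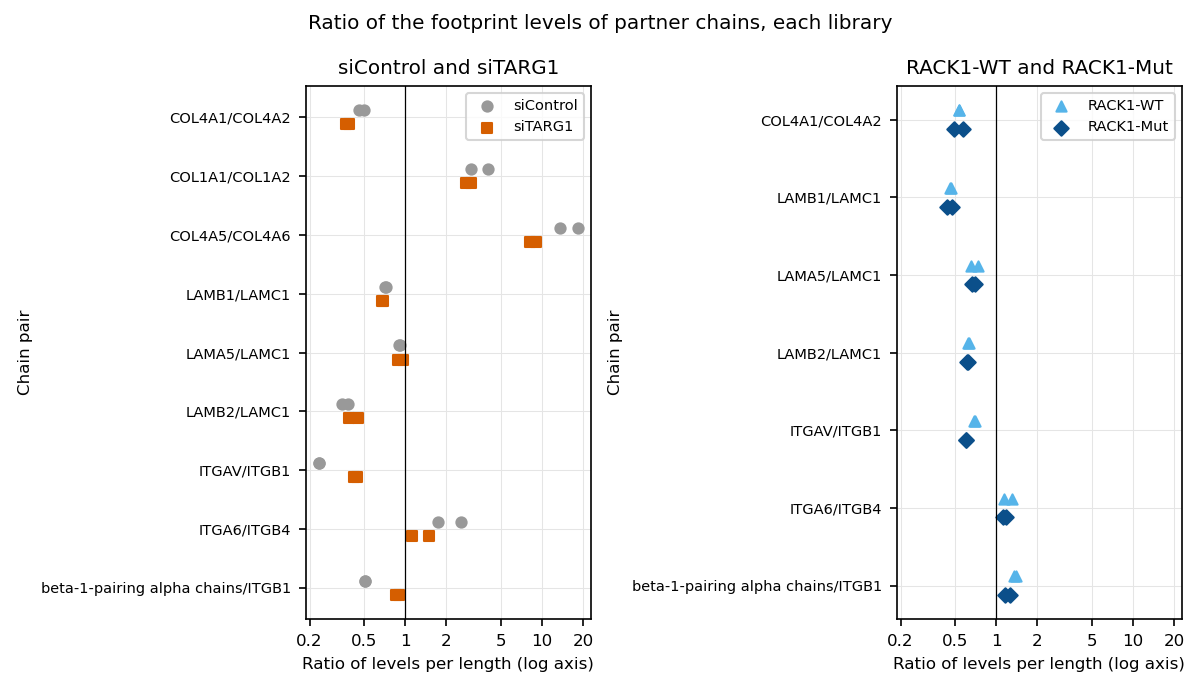
Ratio of the footprint levels per length of partner chains (log axis), 1 point per library, for the siRNA experiment on the left and the RACK1 experiment on the right. The ratio of ITGAV to ITGB1 is 0.233 in both siControl libraries and 0.421 to 0.442 in the siTARG1 libraries, and the RACK1-WT and RACK1-Mut points of most pairs lie together.

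In RACK1-Mut against RACK1-WT cells, no member passed the test. DESeq2 tested 54 members and called 0 at an adjusted p under 0.05 (0.0799% of all 12520 genes tested were called), and 3 had an unadjusted p under 0.05 (1.64% of all genes). With edgeR, 0 members were called (0.24% of all genes were), and 7 had an unadjusted p under 0.05. The share of all genes under that unadjusted p in edgeR is not given here, so the 7 cannot be set against a background. For 22 members (40.7%) the RACK1-Mut values were all on one side of the RACK1-WT values, as they were for 37.6% of all genes. The fold changes of 37 members were below 0 and those of 17 above it, with a median log2 fold change of -0.08, against 0 for all genes. Of 11 laminins, 9 had a fold change below 0. Groups did not overlap for 9 laminins (81.8%), LAMA1 and LAMA4 with a fold change above 0 among them. That share was 32.0% for collagens and 29.4% for integrins. The share of all genes with a fold change below 0 is not given here.

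The member with the smallest p was ITGAV, with 2242 and 2220 normalized counts in RACK1-WT cells and 1888 and 1904 in RACK1-Mut cells. Its log2 fold change was -0.23 (SE 0.0791, 95% interval -0.39 to -0.08), with an unadjusted p of 0.00298 and an adjusted p of 1 in DESeq2, and an adjusted p of 0.0997 in edgeR. The libraries within a group were nearly equal, and the groups lay further apart. LAMA3 had 836.3 and 968.2 against 693.1 and 748.8 (log2 fold change -0.32, SE 0.114, unadjusted p 0.00449 in DESeq2, adjusted p 0.0975 in edgeR). ITGA3 had 1595 and 1680 against 1293 and 1557, a log2 fold change of -0.2 (SE 0.0998), with an unadjusted p of 0.0436 in DESeq2. Next came LAMC3 (27.05 and 56.38 against 23.86 and 21.09) and COL4A2 (1491 and 1685 against 1398 and 1476), with unadjusted p of 0.0716 and 0.126 in DESeq2. The RACK1-WT libraries of LAMC3 were further apart than the groups were.

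For most expressed members the RACK1 data bounded the difference closely. The 95% interval of the log2 fold change lay within -0.5 to 0.5 for 25 of the 39 genes expressed in both experiments, and within -1 to 1 for 34. In siTARG1 cells 8 of the 39 intervals lay within 0.5 of 0 and 20 within 1. COL12A1, which fell in siTARG1 cells, had 1394 and 1325 normalized counts in RACK1-WT cells and 1328 and 1371 in RACK1-Mut cells (95% interval -0.19 to 0.16). LAMB3 had 483.8 and 530.3 against 454.5 and 456.1 (95% interval -0.41 to 0.1). ITGB8 had 2039 and 1913 against 2078 and 1991 (95% interval -0.12 to 0.2), and LAMA4 had 548.0 and 547.4 against 555.9 and 598.5 (95% interval -0.16 to 0.31). FN1 had 242.7 and 215.7 against 235.0 and 257.1 (95% interval -0.24 to 0.44), with overlapping groups. The difference between the changes in the experiments was not tested.

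Genes that make, modify, cut or bind the matrix were taken from 7 lists written by hand, of which 15.8% to 27.3% of the genes tested were called in siTARG1 cells, where 16.4% of all genes were (7.18% rose and 9.19% fell). Of 27 genes tested that modify collagen chains or move them out of the cell, 6 rose and 1 fell in siTARG1 cells (median log2 fold change -0.01). The prolyl 3-hydroxylases P3H2 and P3H3 rose by 1.71 and 1.28 on the log2 scale and COLGALT1, which adds galactose to hydroxylysine, by 0.63. P3H2 had only 13.18 and 19.07 normalized counts in siControl cells, and P3H3 20.21 and 21.46. Of 15 that crosslink or process collagen, 1 rose and 3 fell (median 0). TLL1, a protease that cleaves procollagen propeptides, fell by 1.44, LOX, the lysyl oxidase that starts crosslinking, fell by 0.93, and TGM2, a transglutaminase, rose by 1.03. Of 19 other basement membrane proteins, 2 rose and 1 fell (median 0.29): HSPG2, the perlecan gene, rose by 0.96, AGRN, the agrin gene, by 0.59, and FREM2 fell by 1.58.

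Of 29 other matrix glycoproteins and proteoglycans, 3 rose and 4 fell (median 0.11). The largest changes were falls of CILP, by 2.72, and of VCAN, which encodes the proteoglycan versican, by 2.11, while BGN, the biglycan gene, rose by 1.46 on few counts. Of 31 matrix proteases and inhibitors, 5 rose and 2 fell (median 0.13), with RECK, an inhibitor of metalloproteases, higher by 1.98, SERPINE2 by 1.92 and PLAU, the urokinase gene, by 1.34. Counts were few here too: the siControl libraries had 25.49 and 16.69 normalized counts for RECK, 10.55 and 4.768 for SERPINE2 and 25.49 and 38.14 for PLAU. Of 22 matrix receptors other than integrins, 3 rose and 3 fell (median -0.07). CSPG4 rose by 1.5, from 41.31 and 28.61 normalized counts in siControl cells. CD44, the hyaluronan receptor, and GPC4, a glypican, fell by 1.31 and 0.93. Of 52 integrin adaptors and focal adhesion proteins, 8 rose and 4 fell (median 0.1). PTK2, the gene of focal adhesion kinase, had 79.1 and 106.1 normalized counts in siControl cells and 287.2 and 258.6 in siTARG1 cells (log2 fold change 1.57), LPP rose by 1.36, and the adaptor CRKL fell by 1.96. In RACK1-Mut cells 0 genes of these 7 lists were called.

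Footprints on the untranslated parts of the members were few. Over the expressed members, 0.767% to 0.933% of footprints lay on 5′ UTRs in the libraries of the siRNA experiment and 1.63% to 1.96% in those of the RACK1 experiment, where all regions gave 3.85% to 4.34%. The 3′ UTRs held 0.0727% to 0.155% of the members' footprints, against 0.666% to 1.87% over all regions. ITGB8 stood apart from the other members. It gave the most 5′ UTR footprints of any expressed member in each group. These were 64 in siControl, 129 in siTARG1, 837 in RACK1-WT and 571 in RACK1-Mut cells, and they enter the pooled shares above. The part of ITGB8 in the difference of those shares between the experiments was not tested. Its 5′ UTR held 36 of 217 and 28 of 177 footprints in the siControl libraries (16.6%, 95% Wilson interval 12.2% to 22.1%, and 15.8%, 11.2% to 21.9%) and 62 of 413 and 67 of 419 in the siTARG1 libraries (15.0%, 11.9% to 18.8%, and 16.0%, 12.8% to 19.8%). In RACK1-WT cells the shares were 13.7% (12.6% to 15.0%) and 15.0% (13.7% to 16.3%), and in RACK1-Mut cells 13.6% (12.2% to 15.2%) and 16.2% (14.6% to 18.0%). The share of the second RACK1-Mut library lay outside the intervals of the first and of RACK1-WT replicate 1. Over the 8 libraries the share ran from 13.6% to 16.6%, while the coding level of ITGB8 ranged from 18.11 to 180.6. These intervals cover counting error only.

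Among regions with at least 100 coding counts in a group, the median 5′ UTR share was 1.31% to 1.45%, and 3.92% to 5.72% of them exceeded ITGB8. Of the 29 to 37 members that met that minimum, 0 exceeded it in any group. Of those that met it in every group, the next highest single values were those of COL4A5 and ITGB5. COL4A5 had 6.56% in RACK1-Mut replicate 2 and 0.746% to 3.83% in the other libraries. Its RACK1-Mut share rests on 6 footprints on the 5′ UTR and 120 on the coding sequence over both libraries. ITGB5, the β chain of a vitronectin receptor, had 2.1% to 5.76%.

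**Figure D5:**
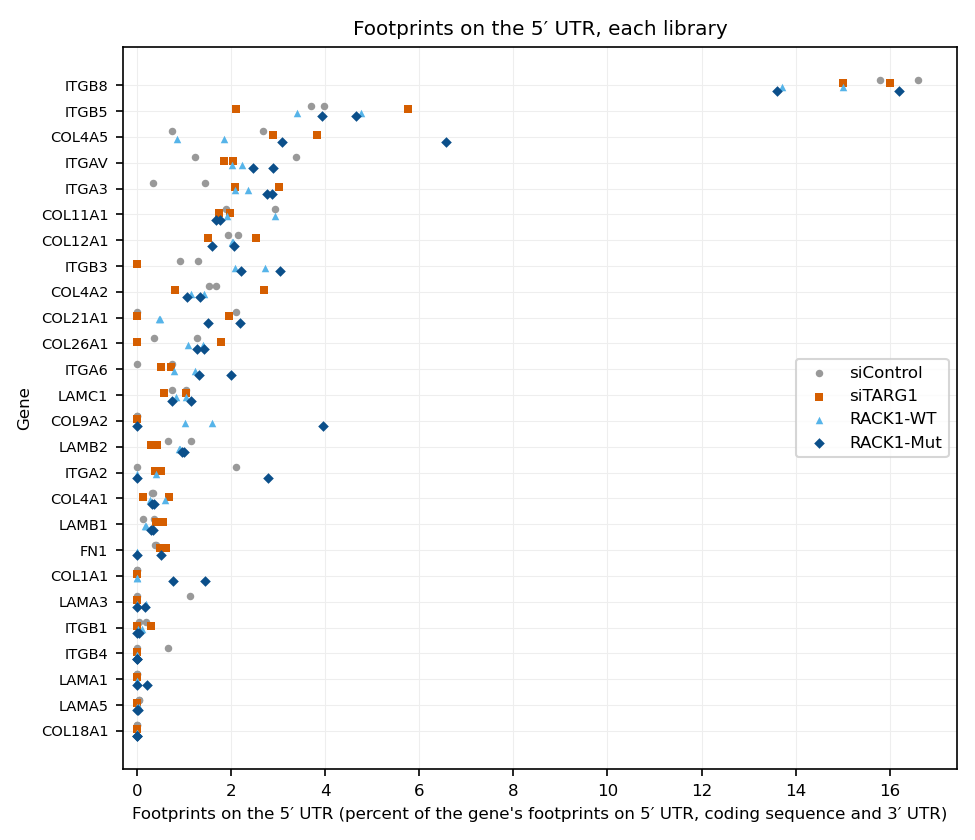
Percent of a gene's footprints that lie on its 5′ UTR, 1 point per library, for 26 members with at least 100 coding counts in every group, ordered by their mean. ITGB8 lies at 13.6% to 16.6% in all 8 libraries, and no other member exceeds 6.56%.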

How the data were processed

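Ribosome-protected fragments from 8 libraries in 4 groups were analysed. Groups and replicate numbers come from the sample titles. Per the labels, lysates were digested with RNase I and linkers carried unique molecular identifiers. The collapsing of reads by identifier is not given in the sources used here. The authors aligned reads with TopHat2 2.1.1 after removing rRNA with Bowtie 1.1.2, per their processing notes, and deposited whole-number counts per merged region of GENCODE on GRCh37, with reads of 26 to 36 nt assigned by an offset of 14 nt per the file headers, while the methods count the offset from the 3′ end. The authors' RPKM columns were not used.

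A symbol was found for 19633 of 20165 regions, through GENCODE release 44 lifted to GRCh37. Coordinates are gene spans of that annotation. Coding counts of the 4 libraries of each comparison were tested with DESeq2 1.42.0 in R 4.3.3 (Wald test, median-of-ratios size factors), which the study's methods name. Genes with at least 10 counts summed over 4 libraries were tested. In DESeq2, adjustment by Benjamini-Hochberg covered those of them that its default filter kept. An adjusted p that DESeq2 left out (8 of the 52 members) stayed out of the calls. Normalized counts are counts divided by those size factors. The script was tested on simulated data. Alternatives were edgeR 4.0.16 with TMM scaling, other filters, exon counts, a replicate term, all 8 libraries in 1 fit and each library left out.

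The members, lists, motifs and tests were chosen with earlier results of these data known. Members named are those called, the 10 with the highest level, the 5 with the smallest p where under 5 were called, FN1, ITGB1 and partner chains, and up to 3 called genes per list. Others (ITGA2B, ITGB3, ITGB5, ITGB6, LAMA1, COL21A1, markers and those at the level threshold) were named after their values were seen. A called member is not reported here by name and is not drawn in the figures.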

Additional observations from a re-analysis of the deposited data

How the results depend on the processing

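In siTARG1 against siControl cells 15 members were called. The count was 11 to 19 under the other settings that keep all libraries. With edgeR it was 19 (COL21A1, ITGA2B, ITGB3 and ITGB6 gained), and 3470 genes were called in all against 1974 with DESeq2. It was 13 with no filter (COL11A1 and ITGB4 lost) and 14 on exon counts (COL11A1 lost). It was 11 with the replicate block and 16 with all 8 libraries in 1 fit (COL21A1 gained). It was 6 to 8 with each library left out, fits that leave 1 library in a group and assume that it varies like the others and that called 564 to 744 genes in all. In the RACK1 comparison it was 0 under every setting run. Whether replicate numbers pair the samples is not given by the labels. Deviations of libraries with the same number correlated at 0.0306 in the siRNA experiment and 0.0829 in the RACK1 experiment. There are 2 pairs in each, too few to decide the question. With the replicate block 11 members were called in siTARG1 cells, COL11A1, ITGB4 and LAMC1 being among those lost, and 0 in RACK1-Mut cells. Among the named members, signs changed for the following values, none of them called. ITGB4 in RACK1-Mut cells became -0.000479 with all 8 libraries in 1 fit. With each library left out, log2 fold changes that crossed 0 ran in siTARG1 cells from -0.09 to 0.00412 for COL18A1, -0.2 to 0.19 for COL1A1, -0.08 to 0.25 for COL4A5 and -0.09 to 0.36 for LAMA3. In RACK1-Mut cells they ran from -0.16 to 0.04 for COL26A1, -0.16 to 0.01 for LAMA5, -0.15 to 0.09 for COL18A1, -0.00291 to 0.09 for ITGB8, -0.29 to 0.01 for COL4A1 and -0.1 to 0.11 for ITGB4. The median of the integrins in siTARG1 cells was 0.33 where 10 counts were required in every library, and that in RACK1-Mut cells went from -0.00198 to -0.1 without RACK1-Mut replicate 2. The cause of these shifts was not tested. Each group had 2 libraries, and the 95% intervals given are not adjusted for the number of genes tested.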
